A study of Mus musculus with 4 samples.

Results

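The USP genes encode the ubiquitin-specific proteases, a family of deubiquitinating enzymes, and their transcripts were followed in mouse gastrocnemius muscle. They were taken as every gene on the array whose symbol is Usp followed directly by a digit and that has a probe set annotated to no other gene. This rule found 51 genes with 128 probe sets, of 18194 genes with a probe set of their own. A gene was read further if a probe set of it reached the median signal of at least 1 array, which left 44 USP genes with 97 probe sets, among 12565 genes in all. Each was represented by its brightest probe set, the one with the highest mean signal, and the other probe sets served as a check. The 7 genes under this limit were Usp17la, Usp26, Usp29, Usp44, Usp46os2, Usp50 and Usp9y, with signals of at most 16.3 on any array. A name is not a function: Usp6nl, one of the 44, is a Rab GTPase-activating protein, and Usp46os2 is an opposite-strand transcript.

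Male mice on a cross of C57BL/6N and FVBN, aged between 2 and 4 months per the study's methods, formed 4 groups. They were FoxO1,3,4 knockout muscle after 24 h of starvation, FoxO1,3,4 knockout muscle of fed mice, control muscle after 24 h of starvation, and control muscle of fed mice. The controls carried the floxed FoxO1, FoxO3 and FoxO4 alleles without deletion, although the sample labels call them wild type. In the knockout the Cre recombinase was driven by the MLC1f promoter, which is active in type II and not in type I fibres, so slow fibres and the other cells of the muscle keep FoxO. Each group was 1 array, hybridized with an equimolar pool of RNA from 6 muscles of 3 mice. There was therefore no replicate and no test, and a gene is called up or down when 2 signals differ at least 1.5-fold (0.58 on the log2 scale). The scatter that can be measured is that between probe sets of 1 gene, which share their RNA: its SD in the log2 response to starvation in control muscle was 0.81 for genes with a mean signal of up to 58.5 and 0.39 for genes above 445. For the 27 USP genes with several probe sets above the limit it was 0.25 in knockout and 0.47 in control muscle. The control value includes a dim probe set of Usp19 with a log2 response of 3.08, through a fed signal of 2.9.

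USP enzymes cleave ubiquitin from proteins or trim ubiquitin chains, and so act against the ubiquitin ligases that mark proteins for the proteasome, for lysosomal sorting or for a change of activity. Single members work at the proteasome, on endosomes and mitochondria, on histones, in DNA repair and in receptor signalling. In wasting muscle the ligases are strongly transcribed under FoxO control, and a few USP enzymes, such as Usp14 and, in rat muscle, Usp19, have been linked to the same state.

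The label of the arrays was checked on the FoxO genes and on fibre markers. The Foxo4 signal was 34.3 and 31.3 in starved and fed knockout muscle, against 291.3 and 296.9 in starved and fed control muscle. For Foxo1 the signal was 165.5 and 185.2 in starved and fed knockout muscle, against 554.4 and 303.8 in starved and fed control muscle. Both genes were low where the labels put the deletion. For Foxo3 the signals were 460.9 and 297.3 in starved and fed knockout muscle and 477.8 and 250.1 in starved and fed control muscle. On a second Foxo3 probe set they were 306.1 and 215.2 in starved and fed knockout muscle, and 298.4 and 172.1 in starved and fed control muscle. Neither shows a loss, and their place in the gene was not analysed here. The study reports less FoxO3 transcript by RT-PCR in the tibialis anterior and less FoxO3 protein by immunoblot in the gastrocnemius. The 5 markers of skeletal fibres summed to between 70433.1 and 75367.9 on the 4 arrays, so this sum was nearly level. The 5 hair and epidermis markers, from cells that muscle does not hold, were uneven: Krt25, a hair keratin, was at 318.5 on the starved knockout and 252.9 on the fed control array, but at only 18.2 in fed knockout and 6.9 in starved control muscle. The summed hair and epidermis markers were at 954.5, 831.7, 540.3 and 714.6 on the starved knockout, fed knockout, starved control and fed control array. The arrays also differed in overall level, with median signals of 22.9 and 23.8 on the starved and fed knockout array and 26.0 and 26.3 on the starved and fed control array.

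Promoter windows were read to show what lies upstream of the USP genes whose signals are described below. RefSeq windows of the GRCm38.p6 build, from 250 bases before to 50 bases after the transcription start, were matched by symbol for 38 of the 51 genes, in 39 windows. Their median GC content was 65%, against 52.7% over all 32851 windows. The FoxO site GTAAACA, searched on both strands, was in 0 of the 39 windows and in 3.65% of all windows. Its core AAACA, which also lies within the longer site, was in 11 of 39 (28.2%), against 50.5% of all windows. The GC box GGGCGG was in 26 of 39 (66.7%), against 35.7% of all windows, and the CCAAT box in 11 of 39 (28.2%), against 37.4%. The E-box CACGTG, the site of the clock proteins, was in 5 of 39 (12.8%), against 7.15%. A window without a match says only that these letters are not in it, and these shares are descriptions of sequence, not of binding. Below are the 250 bases upstream of 6 genes, 5′ to 3′ on the gene's own strand, shown because Usp3 and Usp28 rose on starvation in control muscle, Usp46 fell there, Usp15 and Usp2 were lower there on every probe set, and Usp11 had the widest gap between the genotypes. Capitals mark the GC box, the CCAAT box and AAACA on either strand.
Usp3, chr9:66593116-66593365, minus strand: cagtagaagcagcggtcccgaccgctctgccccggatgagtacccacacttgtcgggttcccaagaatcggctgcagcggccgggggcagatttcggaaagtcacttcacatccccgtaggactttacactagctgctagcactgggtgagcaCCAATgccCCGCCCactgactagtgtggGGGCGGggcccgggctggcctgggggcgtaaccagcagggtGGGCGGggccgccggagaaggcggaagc
Usp28, chr9:48985135-48985384, plus strand: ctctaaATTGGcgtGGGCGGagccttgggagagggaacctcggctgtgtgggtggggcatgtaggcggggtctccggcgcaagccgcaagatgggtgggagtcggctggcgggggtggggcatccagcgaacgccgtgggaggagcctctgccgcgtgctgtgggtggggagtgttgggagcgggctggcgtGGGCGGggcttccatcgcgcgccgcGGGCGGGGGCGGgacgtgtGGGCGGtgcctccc
Usp46, chr5:74068412-74068661, minus strand: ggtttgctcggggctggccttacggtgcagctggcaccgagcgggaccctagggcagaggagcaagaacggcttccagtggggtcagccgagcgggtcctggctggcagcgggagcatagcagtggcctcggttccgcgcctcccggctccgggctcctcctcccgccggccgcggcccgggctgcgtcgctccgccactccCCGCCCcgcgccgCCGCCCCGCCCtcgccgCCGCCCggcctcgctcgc
Usp15, chr10:123197020-123197269, minus strand: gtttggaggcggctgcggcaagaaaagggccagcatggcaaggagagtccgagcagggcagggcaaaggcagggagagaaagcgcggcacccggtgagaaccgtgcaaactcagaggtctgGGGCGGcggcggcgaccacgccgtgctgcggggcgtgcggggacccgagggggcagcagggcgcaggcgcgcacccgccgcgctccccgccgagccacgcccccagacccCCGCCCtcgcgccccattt
Usp2, chr9:44084670-44084919, plus strand: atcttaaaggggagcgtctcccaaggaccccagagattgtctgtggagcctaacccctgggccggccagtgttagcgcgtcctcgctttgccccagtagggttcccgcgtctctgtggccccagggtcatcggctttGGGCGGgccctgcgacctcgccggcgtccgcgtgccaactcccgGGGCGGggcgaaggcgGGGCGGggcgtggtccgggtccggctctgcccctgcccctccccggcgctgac
Usp11, chrX:20703659-20703908, plus strand: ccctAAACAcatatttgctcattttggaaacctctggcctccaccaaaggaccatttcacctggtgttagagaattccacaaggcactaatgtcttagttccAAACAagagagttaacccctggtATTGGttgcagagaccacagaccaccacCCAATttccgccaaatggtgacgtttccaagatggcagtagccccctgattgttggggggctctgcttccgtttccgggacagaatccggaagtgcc
The windows of Usp3, Usp28, Usp46, Usp15 and Usp2 hold GC boxes and no AAACA, and that of Usp11 holds 2 AAACA matches, 2 CCAAT boxes and no GC box. No promoter window was matched for Usp5, which had the next widest gap between the genotypes.

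Most USP genes did not pass 1.5-fold on 24 h of starvation in either genotype. With 1 array per condition this does not show that they did not respond. Of the 44, 36 (81.8%) were under 1.5-fold in both, against 68.5% of all 12565 genes. In knockout muscle, 2 were up (Usp11 and Usp20) and 1 was down (Usp18), where 7.36% of all genes were up and 9.45% down. In control muscle, 3 were up (Usp28, Usp3 and Usp5) and 3 down (Usp18, Usp21 and Usp46), where 9.21% of all genes were up and 14.2% down. The median log2 ratio of starved over fed was 0.00 in knockout and 0.04 in control muscle, beside -0.06 and -0.11 over all genes. The SD of the 44 log2 ratios was 0.35 in knockout and 0.39 in control muscle, beside 0.67 and 0.70 over all genes. Dim genes scatter more, and the USP genes and all genes were not matched for signal here. These muscles were read in bulk, so fewer cells of a type and less RNA per cell cannot be told apart in any of these values.

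**Figure D1:**
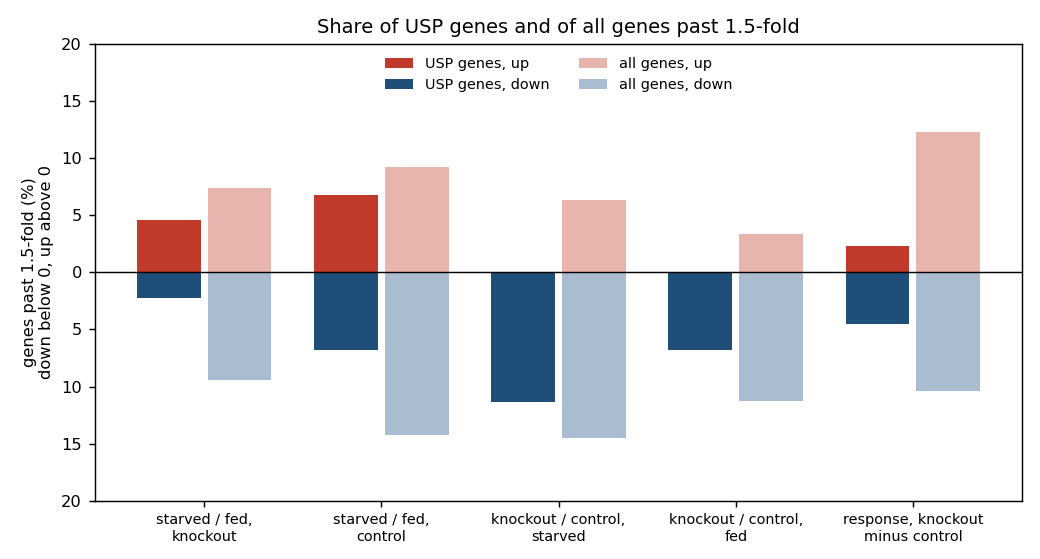
Percent of the 44 USP genes (dark bars) and of all 12565 genes (light bars) past 1.5-fold, up above the zero line and down below it, in the 5 comparisons of the 4 arrays. The dark bar is shorter than the light bar beside it in every pair, and no USP gene was up in knockout over control muscle. The sets were not matched for signal, and with the 75th percentile filter the USP share was not the lower one throughout.

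Across the 44 genes, the log2 response in knockout muscle and that in control muscle, which share no array, were correlated with Pearson's r = 0.45 and Spearman's rho = 0.50, beside r = 0.02 and rho = 0.34 across all genes. These are correlations across genes, which are not independent replicates, and are given as descriptions. By pattern, 3 (6.82%, against 5.76% of all genes) were up in control muscle and under 1.5-fold in knockout muscle, 2 (4.55%, against 8.94%) were down in control muscle only, 2 (4.55%, against 3.37%) were up in knockout muscle only, and 1 (2.27%, against 3.9%) was down in both. None was down in knockout muscle only (against 4.73% of all genes), up in both (2.63%) or opposite past the threshold (2.19%). All of these shares are of few genes and lie near those of all genes.

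**Figure D2:**
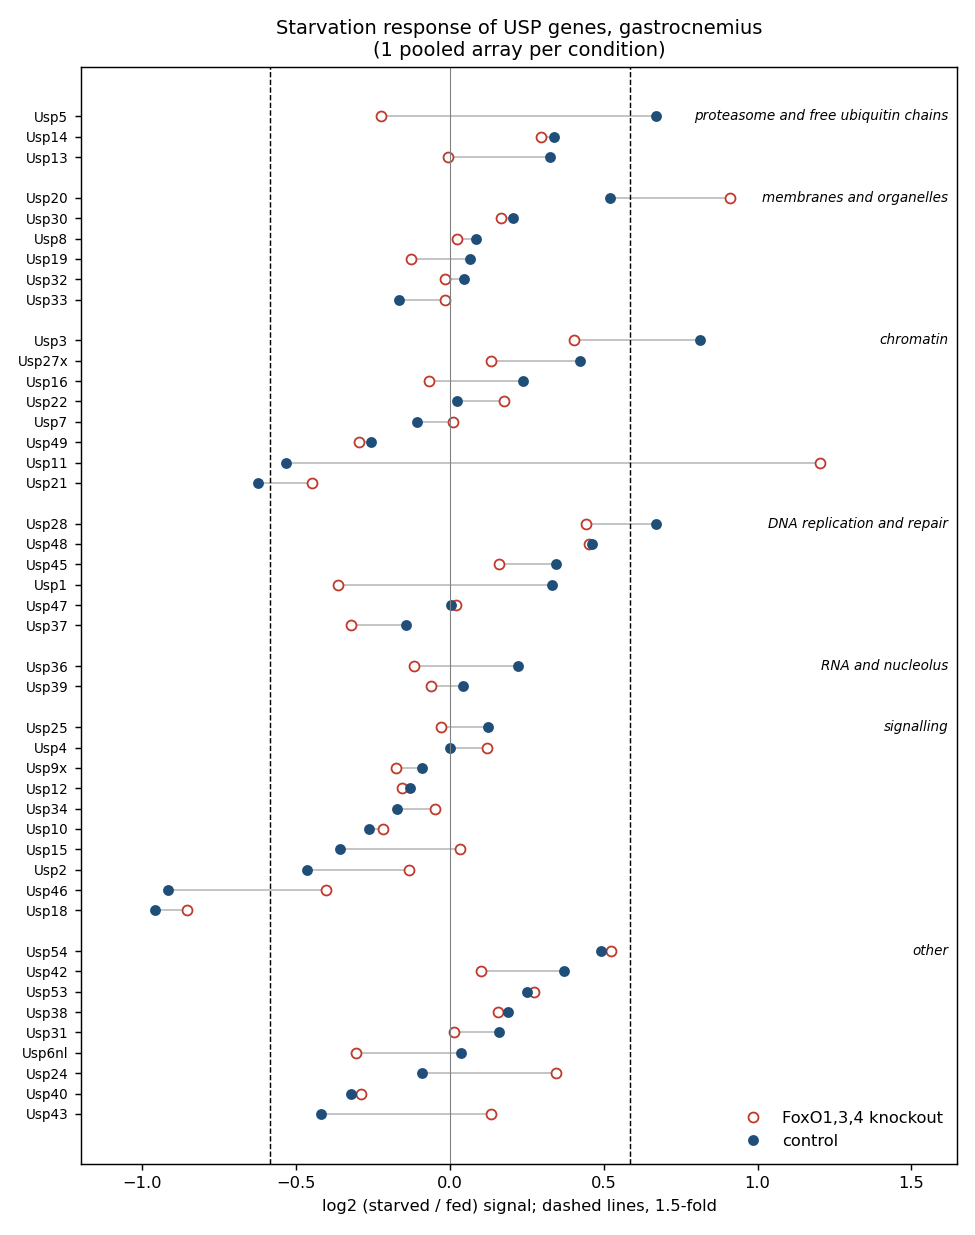
Log2 ratio of starved over fed signal for the 44 USP genes on their brightest probe set, grouped by role, with knockout muscle as open red circles and control muscle as filled blue circles; dashed lines mark 1.5-fold. Most circles lie between the lines, Usp5 and Usp1 lie on opposite sides of 0 in the 2 genotypes, and Usp18 lies beyond the line on the left in both.

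Usp5, Usp13 and Usp14 handle ubiquitin at the last step of degradation. Usp5, also called isopeptidase T, takes apart free ubiquitin chains so that single ubiquitin can be used again. It was at 222.4 on the starved knockout and 259.7 on the fed knockout array, against 347.4 on the starved control and 218.6 on the fed control array. The starved control array stood above the other arrays. Usp5 thus rose 1.59-fold on starvation in control muscle (log2 0.67), while its log2 ratio in knockout muscle was -0.22. The difference of these responses, knockout minus control, was -0.89 on the log2 scale, beside a scatter between probe sets of 0.61 for genes of this brightness. Usp5 has 1 probe set, so no second reading of it was to hand.

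Usp13, the nearest relative of Usp5, was at 858.8 on the starved knockout and 862.2 on the fed knockout array, against 1297.2 on the starved control and 1036.3 on the fed control array. It had the highest signal on the starved control array as well, but its log2 response was 0.32 in control and -0.01 in knockout muscle and passed the threshold in neither. A dimmer probe set of Usp13 gave log2 responses of 0.36 in knockout and 0.63 in control muscle.

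Usp14 sits on the proteasome and trims chains from arriving proteins. It is among the atrophy genes that the study selected partly on these arrays, so its values here are not independent evidence. The study also measured it by RT-PCR in another muscle, the tibialis anterior. There it reports the rise of Usp14 on 24 h of starvation as blocked in the knockout. On the arrays, Usp14 was at 510.3 on the starved knockout and 415.3 on the fed knockout array, against 646.1 on the starved control and 511.0 on the fed control array. Starved exceeded fed in both genotypes by nearly the same ratio, log2 0.30 in knockout and 0.34 in control muscle, both under the threshold. Its other 3 probe sets gave log2 0.31, -0.50 and -0.29 in knockout muscle and 0.59, 0.41 and 1.33 in control muscle. The response was thus positive on all 4 probe sets in control muscle and on 2 of 4 in knockout muscle, and the difference between genotypes ran between -1.61 on the dimmest and -0.04 on the brightest probe set. Averaged over its probe sets, Usp14 was up in control muscle and differed between the genotypes past 1.5-fold; on the brightest alone it did neither.

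**Figure D3:**
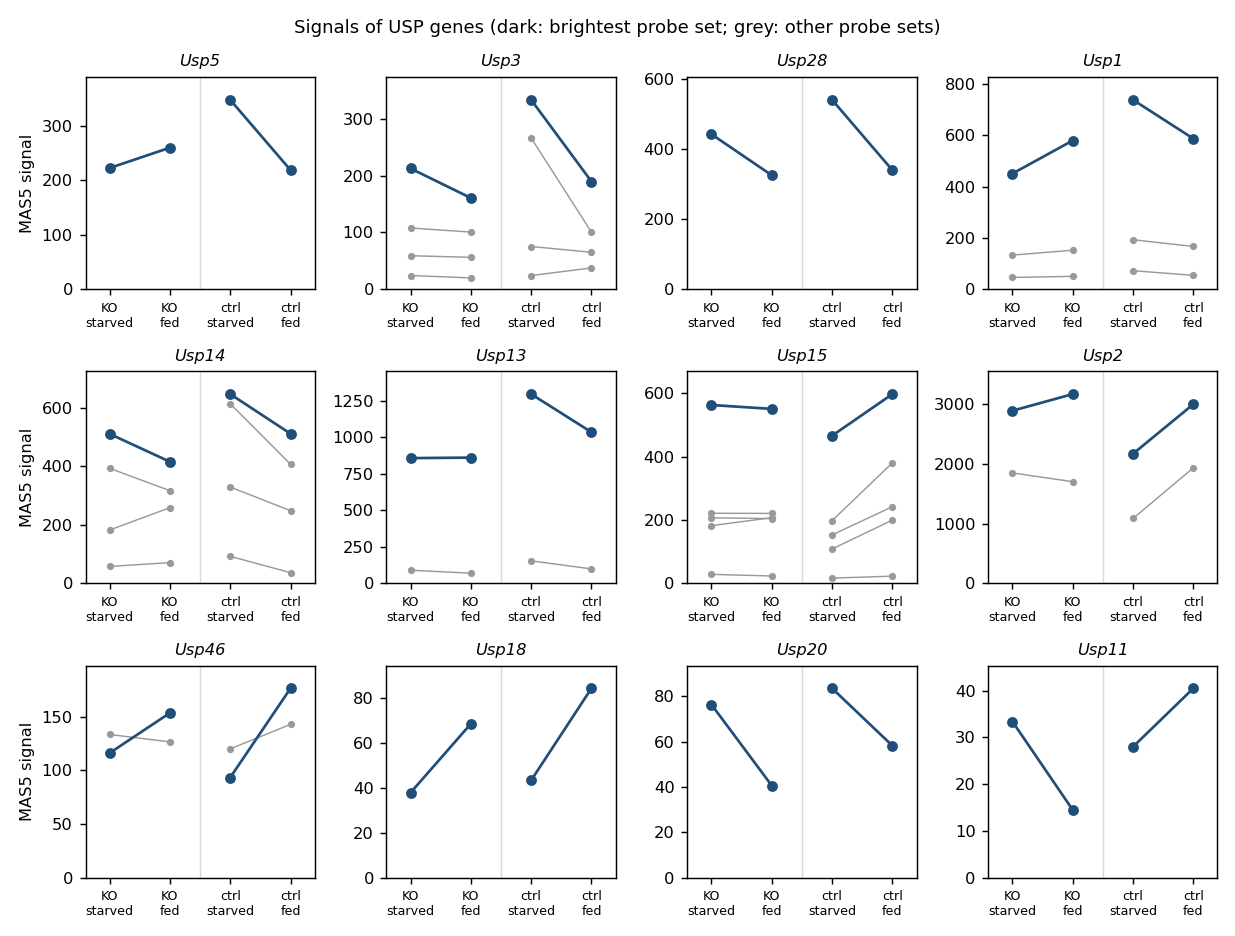
MAS5 signals, on linear axes that start at 0, of 12 USP genes on the starved knockout, fed knockout, starved control and fed control array, with the brightest probe set in dark blue and the other probe sets past the limit in grey. Usp5, Usp3, Usp28, Usp1, Usp13 and Usp14 are highest on the starved control array, and Usp15 and Usp2 are lowest there.

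Of all genes, 68.5% passed 1.5-fold on starvation in neither genotype. On their brightest probe sets, none of the 6 USP genes of DNA replication and repair was past 1.5-fold on starvation in knockout muscle. In control muscle 1 of them rose. That gene, Usp28, which removes ubiquitin from Myc and other short-lived nuclear proteins, was at 442.5 on the starved knockout and 325.4 on the fed knockout array, against 540.7 on the starved control and 339.9 on the fed control array. Both starved arrays were above both fed arrays. It rose 1.59-fold in control muscle (log2 0.67) and had a log2 ratio of 0.44 in knockout muscle, a difference of -0.23 that lies under the probe set scatter of 0.61.

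Usp1 acts with Wdr48 on ubiquitinated PCNA and Fancd2 in DNA repair. It was at 450.9 on the starved knockout and 579.7 on the fed knockout array, against 738.3 on the starved control and 587.2 on the fed control array. The fed arrays were close to each other, and the starved arrays lay on either side of them. Neither response alone passed 1.5-fold (log2 -0.36 in knockout and 0.33 in control muscle), but their difference did, at -0.69. All 3 probe sets of Usp1 showed the same signs, with differences of -0.69, -0.40 and -0.54, of which only that of the brightest is past the threshold.

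Of the other 4, Usp48, a nuclear enzyme, had log2 responses of 0.45 in knockout and 0.46 in control muscle, and Usp45, which acts on the repair protein Ercc1, 0.16 in knockout and 0.34 in control muscle. Usp47, which controls DNA polymerase beta, was among the 4 members with the highest mean signal, an order of probe sets that does not rank the genes' levels. It was nearly level at 1806.6, 1781.7, 1918.6 and 1912.3 on the starved knockout, fed knockout, starved control and fed control array. Usp37, which stabilizes cyclin A, had log2 responses of -0.32 in knockout and -0.14 in control muscle. The median of the 6, on these brightest probe sets, was 0.09 in knockout and 0.34 in control muscle. The dimmest probe sets of Usp37 and Usp47 were past 1.5-fold in knockout muscle, at log2 -0.82 and -0.88, beside 0.05 and 0.06 in control muscle. Dimmer probe sets of Usp48 gave -0.18 and 0.17 in knockout muscle, beside 0.32 and 0.20 in control muscle.

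Of the members, 8 work on chromatin, mostly by removing ubiquitin from histones H2A or H2B. Usp3, an H2A deubiquitinase, was at 212.5 on the starved knockout and 160.6 on the fed knockout array, against 333.2 on the starved control and 189.5 on the fed control array. It rose 1.76-fold in control muscle (log2 0.81), and its log2 ratio in knockout muscle was 0.40. The second Usp3 probe set was at 107.8 and 100.6 on the starved and fed knockout array, against 266.1 and 100.5 on the starved and fed control array, a log2 ratio of 1.40 in control muscle. The 4 probe sets of Usp3 did not run one way, since the dimmest gave -0.63 in control muscle, and the mean over them, 0.45, is under the threshold.

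Usp21, another H2A deubiquitinase, was at 67.0 and 91.4 on the starved and fed knockout array, against 84.9 and 130.9 on the starved and fed control array. It fell in control muscle (log2 -0.62) and had a log2 ratio of -0.45 in knockout muscle, and the call in control muscle was lost when the arrays were scaled to the same trimmed mean or quantiles, or an offset of 16 was added. Usp7, which acts on Mdm2, p53 and FoxO4, was steady: it was at 749.5 and 745.0 on the starved and fed knockout array, against 868.9 and 935.1 on the starved and fed control array. Its log2 response was 0.01 in knockout and -0.11 in control muscle. Usp22, the enzyme of the SAGA coactivator, had log2 responses of 0.18 in knockout and 0.02 in control muscle, and Usp16, an H2A enzyme of mitosis, of -0.07 in knockout and 0.24 in control muscle.

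Usp11, a relative of Usp4 and Usp15 with targets in DNA repair, had the widest gap between the genotypes. It was at 33.4 on the starved knockout and 14.5 on the fed knockout array, against 28.0 on the starved control and 40.5 on the fed control array. The fed knockout array was the lowest of the 4 and the fed control array the highest. Usp11 rose in knockout muscle (log2 1.20), had a log2 ratio of -0.53 in control muscle, and the responses differed by 1.74. All 4 signals are under 58.5, in the range of mean signal where the scatter between probe sets of this difference was 1.14, and Usp11 has 1 probe set. The hair keratins Krt25 and Krt71 and the hair protein S100a3 were likewise higher on the starved knockout than on the fed knockout array and higher on the fed control than on the starved control array (S100a3 at 117.5, 1.8, 1.3 and 180.9 on the starved knockout, fed knockout, starved control and fed control array), whereas Lor and Krt10 of the epidermis ran differently. Their part in the Usp11 values was not tested.

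Against the 68.5% of all genes that passed 1.5-fold on starvation in neither genotype, the members of membranes and organelles were 6. On their brightest probe sets, 1 of these 6 passed it. This was Usp20, which acts on membrane receptors and on Hif1a. It was at 76.3 and 40.6 on the starved and fed knockout array, against 83.5 and 58.2 on the starved and fed control array. Both starved values exceeded both fed values, the rise passed the threshold in knockout muscle (log2 0.91), and the log2 ratio in control muscle was 0.52. Its close relative Usp33 had log2 ratios of -0.02 in knockout and -0.17 in control muscle.

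Usp19, an enzyme anchored in the endoplasmic reticulum, was at 522.1 and 570.6 on the starved and fed knockout array, against 585.4 and 560.0 on the starved and fed control array. These 4 signals lie close together, with log2 responses of -0.13 in knockout and 0.06 in control muscle. The second brightest probe set of Usp19 gave 0.27 in knockout and 0.25 in control muscle, both under the threshold. A dim probe set of Usp19, at 31.2 and 37.4 on the starved and fed knockout array and 24.5 and 2.9 on the starved and fed control array, gives a log2 response of 3.08 in control muscle through its near-zero fed value. Usp30, the mitochondrial enzyme that opposes mitophagy, was at 64.3 and 57.3 on the starved and fed knockout array, against 75.3 and 65.3 on the starved and fed control array. Its log2 response was 0.17 in knockout and 0.21 in control muscle, and those of Usp8, which sorts receptors on endosomes, were 0.02 in knockout and 0.08 in control muscle. Dimmer probe sets ran further apart: that of Usp8 gave 0.40 in knockout and 0.74 in control muscle, that of Usp30 gave -0.10 in knockout and 0.49 in control muscle, and that of Usp32, a Golgi enzyme, gave 0.24 in knockout and -0.80 in control muscle. The control responses of Usp8 and Usp32 on these probe sets are past the threshold, in opposite directions.

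Among the 10 members that act in signalling, 8 had a log2 response below 0 in knockout muscle and 8 in control muscle, with medians of -0.14 and -0.22. For all genes, 57.8% were below 0 in knockout and 60.1% in control muscle. Usp18, which takes the ubiquitin-like protein Isg15 off its targets and restrains interferon receptor signalling, was the only USP gene to fall in both genotypes. It was at 37.9 and 68.6 on the starved and fed knockout array, against 43.4 and 84.4 on the starved and fed control array. Both starved values were below both fed values, with log2 ratios of -0.86 in knockout and -0.96 in control muscle, a difference of 0.10.

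Of 12 other genes listed for Isg15 and interferon, 10 were above the limit, and 5 fell and 0 rose in each genotype, where 9.45% of all genes fell in knockout and 14.2% in control muscle. The log2 ratio was below 0 for 8 of the 10 in each genotype, with medians of -0.59 in knockout and -0.56 in control muscle. Ifit3, an antiviral protein, had log2 ratios of -1.38 in knockout and -0.81 in control muscle, and Rtp4, an interferon-induced chaperone of receptors, of -1.16 in knockout and -0.93 in control muscle. Most of these signals, like those of Usp18, are low. The 4 macrophage markers summed to 1872.1 on the starved and 1962.2 on the fed knockout array, and to 2468.9 on the starved and 2512.9 on the fed control array. Their part in the interferon genes was not tested.

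The probe set of Usp2 was the brightest of the family. Usp2 is a rhythmically expressed enzyme that acts on the clock proteins Per1 and Bmal1, on Mdm2 and on cyclin D1. It was at 2879.4 on the starved knockout and 3156.9 on the fed knockout array, against 2162.4 on the starved control and 2987.8 on the fed control array. The starved control array stood below the others, yet the log2 ratio in control muscle, -0.47, stayed under the threshold, beside -0.13 in knockout muscle. On the second Usp2 probe set the same array was lower still, at 1083.9, against 1927.3 on the fed control array (log2 -0.83), and the knockout arrays were at 1843.4 starved and 1696.8 fed (log2 0.12). The differences of the responses, 0.33 and 0.95, have 1 sign and unequal size.

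Of the 14 clock genes listed beside Usp2, 3 rose and 2 fell in knockout muscle, and 4 rose and 2 fell in control muscle. Of all genes, 7.36% rose and 9.45% fell in knockout muscle, and 9.21% rose and 14.2% fell in control muscle. Cry2, a repressor of the clock, had log2 ratios of 0.69 in knockout and 1.52 in control muscle, and Per1, another repressor, of 0.71 in knockout and 1.36 in control muscle. Dbp, an output gene of the clock, fell in both, with log2 ratios of -0.88 in knockout and -0.91 in control muscle. The time of day at which muscles were taken is not given in the sources used here.

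Usp15, which acts on Smads and on the receptor of TGF-beta, has 5 probe sets above the limit. The brightest was at 562.8 on the starved knockout and 550.5 on the fed knockout array, against 466.0 on the starved control and 597.2 on the fed control array. Only the starved control array was clearly low. The log2 response was 0.03 in knockout and -0.36 in control muscle, and over the 5 probe sets it lay between -0.19 and 0.28 in knockout muscle and between -0.94 and -0.36 in control muscle. All 5 differences were positive, between 0.39 and 0.94, and the 4 dimmer ones were past 1.5-fold while that of the brightest was not.

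Usp46, which with Wdr48 acts on glutamate receptors, was at 116.2 on the starved knockout and 153.6 on the fed knockout array, against 93.4 on the starved control and 176.5 on the fed control array. Starved was below fed in both genotypes, and the fall passed the threshold in control muscle (log2 -0.92) and not in knockout muscle (log2 -0.40). Its second probe set gave 0.08 in knockout and -0.25 in control muscle, and the mean over both, -0.58 in control muscle, is just under the threshold. Its near twin Usp12 had log2 ratios of -0.15 in knockout and -0.13 in control muscle.

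Usp25, which in human has a muscle isoform, was also among the 4 brightest. It was at 1115.1 and 1138.4 on the starved and fed knockout array, against 1535.6 and 1408.2 on the starved and fed control array. Its signals were lower on both knockout arrays than on both control arrays, with log2 responses of -0.03 in knockout and 0.12 in control muscle. Its relative Usp28 is described above. Usp4, the third relative of Usp11 and Usp15, had log2 responses of 0.12 in knockout and 0.00 in control muscle. Usp9x, Usp10 and Usp34, which act on many signalling proteins, among them p53 for Usp10 and axin for Usp34, lay between -0.26 and -0.05 in both genotypes.

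The remaining members were the 2 of RNA and the nucleolus and 9 with other or little known roles. Usp36, a nucleolar enzyme, had log2 responses of -0.12 in knockout and 0.22 in control muscle, and Usp39, a splicing factor without protease activity, of -0.06 in knockout and 0.04 in control muscle. Usp54 came nearest the threshold, at 0.52 in knockout and 0.49 in control muscle. None of these 11 genes passed it on starvation on the brightest probe set, where 68.5% of all genes passed it in neither genotype. A dimmer probe set of Usp36 was past it in control muscle, at 118.2 on the starved and 77.6 on the fed control array (log2 0.61).

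The genotypes were then set against each other on the starved and on the fed arrays. On the starved arrays, 5 USP genes were down (Usp1, Usp13, Usp3, Usp45 and Usp5) and 0 up in knockout over control muscle, where 14.5% of all genes were down and 6.37% up. Usp37 lay at 1.5-fold down there (log2 -0.58) but was not counted, through rounding in the computation. It was at 65.2 and 81.4 on the starved and fed knockout array, against 97.8 and 108.1 on the starved and fed control array. Its second probe set gave -0.92 on the starved arrays. On the fed arrays, 3 were down (Usp11, Usp24 and Usp43) and 0 up, where 11.3% of all genes were down and 3.37% up. Of these, Usp43 reached the median signal only on the fed control array, and Usp11 did not reach it on the fed knockout array. The log2 ratio was below 0 for 37 of 44 USP genes on the starved and 36 of 44 on the fed arrays, beside 67.1% and 77.9% of all genes. The medians were -0.21 starved and -0.19 fed, beside -0.16 and -0.20 over all genes, and the fed median of the USP genes turned to 0.02 under quantile normalization.

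These ratios carry the overall level of the arrays. Scaling the arrays to the same median, trimmed mean or quantiles raised the median over all genes by 0.18 in each case on the starved arrays and by 0.14 to 0.19 on the fed arrays. With any of the 3 scalings, none of the 5 calls on the starved arrays remained, Usp2 was called up there, and the median of the USP genes was between -0.03 and -0.02; on the fed arrays only the Usp11 call remained. Beside these medians, those over all genes after scaling were 0.02 on the starved arrays in each case and between -0.05 and 0.00 on the fed arrays. The sums of cell type markers differed between the genotypes in both directions. The 4 macrophage markers summed to 1872.1 and 1962.2 on the starved and fed knockout array, against 2468.9 and 2512.9 on the starved and fed control array, and the 3 endothelial markers to 1281.0 and 1183.6, against 1517.3 and 1507.8. Of these 7, Cd68 alone was higher in knockout muscle, on the starved arrays (log2 0.21). The 4 slow fibre markers summed to 16163.0 and 17260.1 on the starved and fed knockout array, against 13644.9 and 15194.5 on the starved and fed control array. Of these, Myh7 was lower in knockout muscle starved (log2 -0.04) and Tnni1 fed (log2 -0.06). The hair and epidermis sums given above were also higher in knockout muscle, but their members ran both ways. Krt25, Krt71 and S100a3 were higher in knockout muscle starved and lower fed (log2 -3.80, -1.67 and -6.65 fed). Lor and Krt10 were lower starved and higher fed (log2 3.41 and 1.71 fed). Pmp22, the 1 Schwann cell marker read, was lower in knockout muscle starved (log2 -0.15) and higher fed (log2 0.13). Adipoq, the 1 fat marker read, was lower in knockout muscle both starved (log2 -0.85, past 1.5-fold) and fed (log2 -0.24). The part of these markers in the ratios was not tested.

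Usp45 was at 428.4 and 383.6 on the starved and fed knockout array, against 644.4 and 507.4 on the starved and fed control array. Both knockout signals were below both control signals, with log2 ratios of -0.59 starved and -0.40 fed. The second Usp45 probe set gave -0.43 starved and -0.54 fed, and the dimmest 0.04 in each. The mean over them, -0.33 starved, is under the threshold. Usp13 was also lower in knockout muscle on both, with -0.60 starved and -0.27 fed, whereas Usp5 had -0.64 starved and 0.25 fed. Usp1 had -0.71 starved and -0.02 fed, and its other probe sets were also below 0 on the fed arrays, at -0.13 and -0.11.

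On the fed arrays, Usp24, which has targets in DNA damage signalling, was at 482.6 and 380.2 on the starved and fed knockout array, against 547.1 and 582.7 on the starved and fed control array. Its fed ratio was -0.62 on the brightest probe set and -0.02 and -0.40 on the others. Usp43 was dim throughout, at 21.5 and 19.6 on the starved and fed knockout array, against 22.3 and 29.8 on the starved and fed control array. Its fed ratio of -0.60 thus rests on a gap of few units of signal. Usp43 was kept only through the fed control array (median signal 26.3), whose high value also makes this ratio, so the call is no separate evidence. Usp11 had the largest fed ratio of the 44, -1.48, and was not below control on the starved arrays (log2 0.25).

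Whether the genotypes differed in their response was read as the difference of the log2 responses, knockout minus control. In this, 1 USP gene was past 1.5-fold upward (Usp11) and 2 downward (Usp1 and Usp5), where 12.3% of all genes were up and 10.4% down. The median was -0.03 over the USP genes and 0.04 over all genes, and 25 of the 44 were below 0, beside 45.7% of all genes. Scaling moved these all-gene medians by less than 0.1.

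Probe sets of a gene gave a second view of the sign. Of the 27 USP genes with at least 2 probe sets above the limit, 11 (40.7%) had a negative difference on every probe set: Usp1, Usp13, Usp14, Usp25, Usp30, Usp31, Usp36, Usp37, Usp39, Usp48 and Usp8. Over all 5703 genes with at least 2 probe sets this share was 23.3%. The difference was positive on every probe set of 4 (14.8%, against 26.4%), Usp15, Usp2, Usp46 and Usp53, and mixed for 12. The control response alone was positive on every probe set of 13 (48.1%, against 22.0%) and negative on every one of 4 (14.8%, against 38.4%), Usp15, Usp2, Usp24 and Usp46. In knockout muscle it was positive on every probe set of 4 (14.8%, against 17.9%) and negative on every one of 6 (22.2%, against 33.4%). Probe sets of a gene share RNA and array and are not replicates, and most of these differences are under 1.5-fold.

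**Figure D4:**
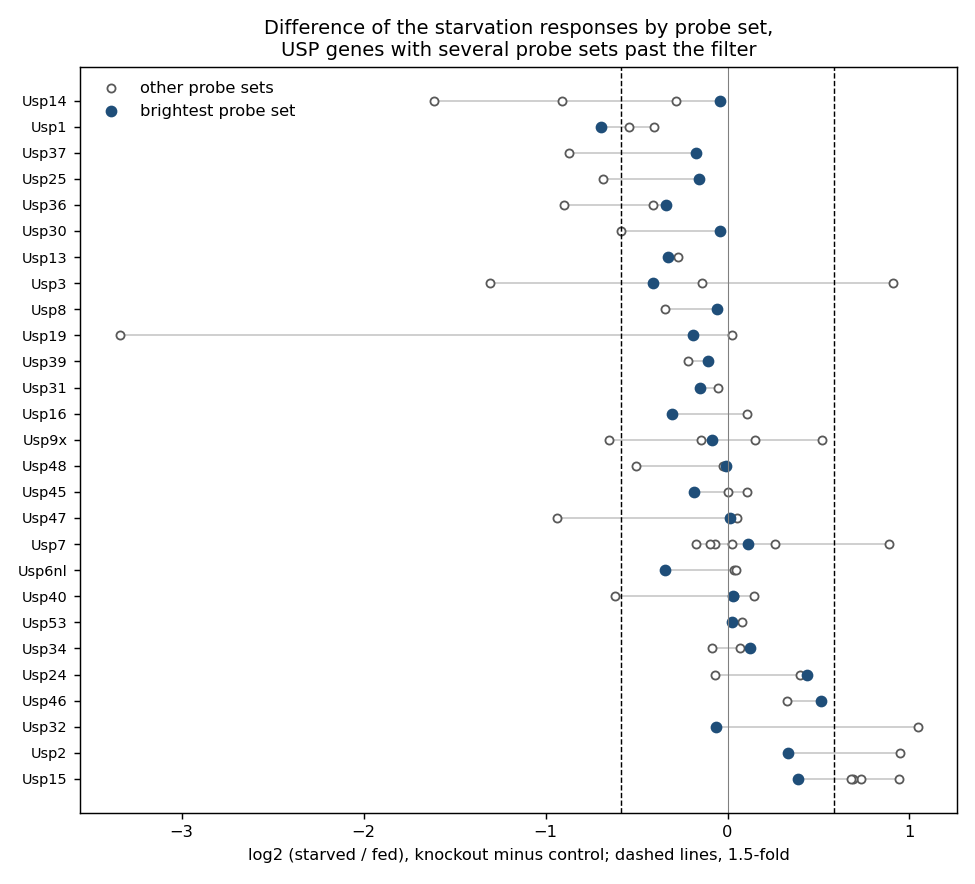
Difference of the log2 responses to starvation, knockout minus control, on each probe set above the limit of the 27 USP genes with several. Genes are ordered by the median over probe sets. Filled circles are the brightest probe set, open circles the others, and dashed lines mark 1.5-fold. All 5 circles of Usp15 and both of Usp2 lie right of 0, all 4 of Usp14 and all 3 of Usp1 lie left of it, and the far left circle of Usp19 is its dim probe set.

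Proteins that bind USP enzymes were read from a list. Of 13 listed partners, all above the limit, 0 were past 1.5-fold on starvation in either genotype. Of all genes, 7.36% rose and 9.45% fell in knockout muscle, and 9.21% rose and 14.2% fell in control muscle. A count of 0 among so few genes is given as a description. Wdr48, the activator of Usp1, Usp12 and Usp46, had log2 responses of 0.19 in knockout and 0.04 in control muscle, and G3bp2, a stress granule protein that can bind Usp10, of -0.18 in knockout and -0.51 in control muscle. The ubiquitin genes themselves were not analysed here.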

How the data were processed

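Transcripts of gastrocnemius muscle were profiled by the authors on Affymetrix mouse arrays, with 1 pooled RNA and 1 array for each condition. What was deposited by the authors is a table of probe set intensity in linear units, for which the submitters' processing notes list MAS5 and Affymetrix Expression Console. The intensities were used as deposited, although the array medians share no common scale. No scaling target, detection call or genome build is stated in the sources used here. The number of arrays limits the precision.

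Log2 ratios of intensity were computed in Python 3.11.15 with numpy 2.4.6, pandas 2.3.3 and scipy 1.17.1, and plotted with matplotlib 3.10.9. An intensity of 0 was set to 0.1. Of 45037 probe sets other than Affymetrix controls, the platform annotation gives 1 gene for 34945, several for 932 and none for 9160. Probe sets with several genes were not used, among them 4 that name a USP gene. Symbols were updated through the gene identifier with the RefSeq table of GRCm38.p6, and promoter sequences are also from RefSeq. Probe sets had to reach the 50th percentile of at least 1 array. Calls were made at 1.5-fold, the threshold in the study's methods, by code first tested on simulated data. The members, roles and gene lists were chosen with earlier results of these data known.

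Signals on all 4 arrays are given for each USP gene past 1.5-fold in any of the 5 comparisons, for the 4 with the highest mean signal, and for Usp14, Usp19, Usp2, Usp5, Usp7, Usp30 and Usp18. Those of Usp15 were added after its values were seen. From other lists, up to 4 genes with the largest response or difference were named; Lor, Krt10, Wdr48 and G3bp2 were chosen after their values were seen. The alternatives tried were 3 scalings of the arrays, no filter and a 75th percentile filter, other choices of the probe set for a gene, an offset of 16 and a 2-fold threshold.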

Additional observations from a re-analysis of the deposited data

Results flagged for a closer look

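For 3 USP genes the 2 genotypes responded with opposite sign and differed by at least 1.5-fold. With 1 array per condition the difference itself was not tested. Usp5 had a log2 response to starvation of -0.22 in knockout and 0.67 in control muscle, a difference of -0.89. Usp1 had -0.36 in knockout and 0.33 in control muscle, a difference of -0.69. Usp11 had 1.20 in knockout and -0.53 in control muscle, a difference of 1.74, on signals between 14.5 and 40.5.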

How the results depend on the processing

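No paired analysis was possible because each condition is 1 array. The starvation calls of Usp5, Usp28, Usp18, Usp20 and Usp11 held under every alternative that kept the 1.5-fold threshold and read the gene. So did the differences of Usp5 (between -0.91 and -0.84) and Usp11. Each of these genes has 1 probe set above the limit, so other choices of probe set or filter could not change its values. For them only the 3 scalings and the offset of 16 were a check. The call of Usp5 in starved knockout over starved control muscle was lost under all 3 scalings. The 75th percentile filter, which leaves 30 USP genes, drops Usp11, Usp18 and Usp20. Scaling to the same trimmed mean or quantiles added a call of Usp20 up in control muscle, beside that in knockout muscle. The mean over probe sets ended the control calls of Usp3 (log2 0.45) and Usp46 (-0.58) and the difference of Usp1 (-0.55). In the counts that follow, the share of all genes under the same setting is in brackets. Scaling to the same median left 1 gene up (10.1%), 0 down (8.32%) and a median of -0.028 in starved knockout over starved control muscle. It left 1 down (7.19%) and a median of -0.050 in fed muscle, and 2 up (13.5%) in the difference of responses. Scaling to the same trimmed mean left 1 up (9.88%), 0 down (8.44%) and a median of -0.034 in starved muscle, and 1 down (6.18%) and a median of -0.0011 in fed muscle. Quantile normalization left 1 up (10.2%), 0 down (8.27%) and a median of -0.024 in starved muscle, and 1 down (6.34%) and a median of 0.016 in fed muscle. Without a filter, over 51 genes, 7 were up (15%) and 2 down (16.4%) on starvation in knockout muscle, and 5 up (16.4%) and 5 down (19.7%) in control muscle. In knockout over control muscle, 4 were up (13.2%) starved, and 3 up (11.4%) and 6 down (18.8%) fed. In the difference 5 were up (20%) and 4 down (19%). The calls added without a filter rest on signals of at most 16.3. With the 75th percentile filter, over 30 genes, 0 were up (3.77%) and 0 down (5.49%) in knockout muscle. In control muscle 3 were up (6.78%) and 1 down (11%). In knockout over control muscle 0 were up (3.61%) and 5 down (11%) starved, and 0 up (0.58%) and 1 down (5.38%) fed. In the difference 0 were up (6.68%) and 2 down (5.22%). The USP share was the higher for up in control muscle, down in starved knockout over control muscle and down in the difference, and the lower for the rest. With the mean over probe sets, 1 was up in starved (6.73%) and 1 in fed (3.9%) knockout over control muscle and 3 were up (12.7%) in the difference. At 2-fold, 1 was up (3.29%) and 0 down (3.21%) in knockout muscle, and 0 up (3.73%) and 0 down (4.81%) in control muscle. In knockout over control muscle 0 were down (4.52%) starved and 1 down (3.55%) fed, and in the difference 0 were down (4.34%). Of the counts and medians, 90 values stayed within 1.5 times the count or 0.1 of the median. The arrays hold no measure of the spread between mice, so no call above carries an error.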

Other observations

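Other deubiquitinases and proteins related to them, Cyld, Uspl1 and Pan2 with a USP fold among them, were read from a list. Of 39 listed, 37 were above the limit, of which 2 rose and 2 fell on starvation in knockout muscle, and 4 rose and 2 fell in control muscle. Of all genes, 7.36% rose and 9.45% fell in knockout muscle, and 9.21% rose and 14.2% fell in control muscle, so these counts are near or under the shares of all genes. Zranb1, an OTU enzyme that binds Wnt pathway proteins, was at 577.5 and 580.5 on the starved and fed knockout array, against 1405.7 and 718.1 on the starved and fed control array. The starved control array stood far above the other arrays, with log2 responses of -0.01 in knockout and 0.97 in control muscle, and all 3 probe sets of Zranb1 showed this. Mindy1, which trims long ubiquitin chains, was at 498.0 and 429.1 on the starved and fed knockout array, against 1084.6 and 621.5 on the starved and fed control array. It rose in control muscle (log2 0.80) and had a log2 ratio of 0.21 in knockout muscle.

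Otub2, another OTU enzyme, was at 92.0 and 143.3 on the starved and fed knockout array, against 42.0 and 126.7 on the starved and fed control array, and fell in both (log2 -0.64 in knockout and -1.59 in control muscle). Tnfaip3, a brake on NF-kB signalling, was at 112.0 and 91.2 on the starved and fed knockout array, against 58.9 and 107.4 on the starved and fed control array, so that the starved control array was the lowest. Each of these values is from 1 array per condition and none was tested.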
